A study of Mus musculus with 16 samples.

Results

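The core loop of the circadian clock was followed here through 10 genes of the 25803 in the deposited liver RNA-seq tables: Clock, Npas2, Bmal1 (listed in the tables as Arntl), Per1, Per2, Per3, Cry1, Cry2, Nr1d1 and Nr1d2. The members are the genes of the textbook transcription loop, matched by name. All 16 libraries came from livers of male mice that had eaten a high-fat diet for 12 weeks, 4 libraries in each of 4 groups. Control mice, which the design text calls WT, and Cpt1a LKO mice were sampled either fasted for 16 h or refed for 6 h after such a fast. LKO is read here as a liver knockout; the promoter, virus or cross behind it is not given in the sources used here, and neither is the age of the mice. The clock time of necropsy is not given either, and the refed design adds 6 h to the fast, so feeding and elapsed or clock time cannot be told apart in any fasted-to-refed comparison. Nothing in the labels ties a library to a mouse by name, so p-values measure the spread between these samples. In bulk liver, fewer cells of a type and less RNA per cell cannot be told apart.

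The clock is a feedback loop of transcription. CLOCK, or its paralog NPAS2, pairs with BMAL1 and binds E-box sequences to switch on the Per and Cry genes and the Nr1d genes. PER and CRY proteins return to the nucleus and repress CLOCK and BMAL1, while REV-ERBα and REV-ERBβ, made from Nr1d1 and Nr1d2, repress Bmal1, Npas2, Clock and Cry1 through ROR elements. In liver the phase of this loop is known to follow meal time as well as signals from the brain, and REV-ERBα is also known as a repressor of lipid synthesis genes.

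Short stretches around matches to these elements are shown because they are the sites by which the loop is drawn. Windows of 300 bases, from 250 before to 50 after a transcription start, were taken from RefSeq on GRCm38.p6, and 9 of the 10 members had at least 1 window (Per2 had no entry). These members had 13 windows in all, with 3 for Clock, 2 each for Arntl and Per1, and 1 for each of the others. The motifs searched on both strands were the E-box CACGTG, the E-prime box CACGTT, the ROR element cores TAGGTCA and TGGGTCA, the D-boxes TTATGTAA and TTACGTAA, and the cAMP element TGACGTCA. The E-box was in 7.15% of all 32851 windows, and among members in 1 of the 2 Per1 windows and in that of Cry1. The E-prime box was in 4.68% of all windows, and among members in those of Cry1, Cry2 and Nr1d1. The core TAGGTCA was in 2.61% of all windows and, among members, in 1 of the 2 Arntl windows, while TGGGTCA (3.98% of all windows) matched no member window. The D-box TTATGTAA was in 0.938% of all windows and occurred at 2 places in the Per3 window. TTACGTAA (0.119%) and TGACGTCA (1.79%) matched no member window. Each stretch below is 30 bases on the strand of its gene, 5′ to 3′, with the matched letters in capitals, and an E-prime box read on the opposite strand appears as AACGTG.
Arntl, ROR element core: aaggcagaaagTAGGTCAgggacggaggtg
Per1, E-box: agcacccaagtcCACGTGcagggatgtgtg
Per3, D-box nearer the start: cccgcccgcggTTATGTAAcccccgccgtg
Per3, D-box farther from the start: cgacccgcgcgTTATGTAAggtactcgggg
Cry1, E-box: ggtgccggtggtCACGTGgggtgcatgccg
Cry1, E-prime box: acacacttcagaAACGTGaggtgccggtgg
Cry2, E-prime box: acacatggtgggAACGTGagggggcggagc
Nr1d1, E-prime box: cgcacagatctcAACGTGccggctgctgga

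On GRCm38.p6 the Arntl stretch is chr7:113207530-113207559 on the plus strand, and its match begins 31 bases after the transcription start of the window that holds it. The Per1 stretch is chr11:69098771-69098800 on the plus strand, with its match 166 bases before the transcription start of its window. The Cry1 stretches overlap each other, at chr10:85185097-85185126 and chr10:85185116-85185145 on the minus strand, with matches 60 and 79 bases before the start. The Cry2 stretch is chr2:92434218-92434247, its match 166 bases before the start, and the Nr1d1 stretch is chr11:98775388-98775417, its match 28 bases before the start, both on the minus strand. The Per3 stretches are chr4:151044805-151044834 and chr4:151044852-151044881 on the minus strand, 158 and 205 bases before the start. Each match is a run of letters and not a measured binding site.

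Library totals ran from 14721601 to 24618230 counts, with group means of 17.9 ± 1.95 (SD, n = 4) M (mega) counts in control and 17.7 ± 1.44 in LKO when fasted, and of 18.7 ± 4.39 and 18.0 ± 3.26 when refed. Levels are CPM, counts per M counts of the TMM-scaled library total. The targeted gene, Cpt1a, which encodes the mitochondrial outer-membrane carnitine palmitoyltransferase, averaged 487 ± 83.2 CPM in fasted control and 101 ± 17.3 CPM in fasted LKO. After refeeding it averaged 457 ± 137 CPM in control and 54.2 ± 16.6 CPM in LKO, and control and LKO libraries did not overlap in either state. Its log2 fold change by edgeR was -2.28 (SE 0.23, Benjamini-Hochberg adjusted p = 1.38e-04) fasted and -3.08 (SE 0.24, adjusted p = 8.23e-06) refed. The 6 hepatocyte markers summed to between 56684 and 84445 CPM over the 16 libraries. The 3 cholangiocyte markers summed to 41.5 CPM in library S44 (fasted LKO) and to at most 5.31 CPM elsewhere, and the 5 macrophage markers summed to between 197.9 and 589 CPM.

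A pair of fasted libraries lay at the ends of their groups for several clock genes. Library S43, among fasted control, had the highest Clock, Npas2 and Arntl of its group and the lowest Per1, Per2, Per3 and Nr1d2. Library S47, among fasted LKO, was likewise highest for Clock, Npas2 and Arntl and lowest for Per1, Per2, Per3 and Nr1d2. Its Arntl level was 9.63 CPM, against 1.23 to 2.20 CPM in the other fasted LKO libraries, and its Per3 level was 4.16 CPM, against 12.5 to 24.8 CPM. S43 and S47 differed in other members. S43 was highest of its group for Cry2 and Nr1d1, while S47 was highest for Cry1 and lowest for Cry2. The fasted LKO library S44 was also low, with 19.0 CPM of Per1, 9.93 of Per2 and 12.5 of Per3. S43 held 20.8, 14.4 and 15.2 CPM of these. The hepatocyte sums of S43 and S47 were 70706 and 65252 CPM, the latter the highest of its group. Fold changes of the clock members that moved by over 1.5 times without S43 or S47 are also given without that library. The part of sampling time in the profiles of S43 and S47 was not tested.

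**Figure D1:**
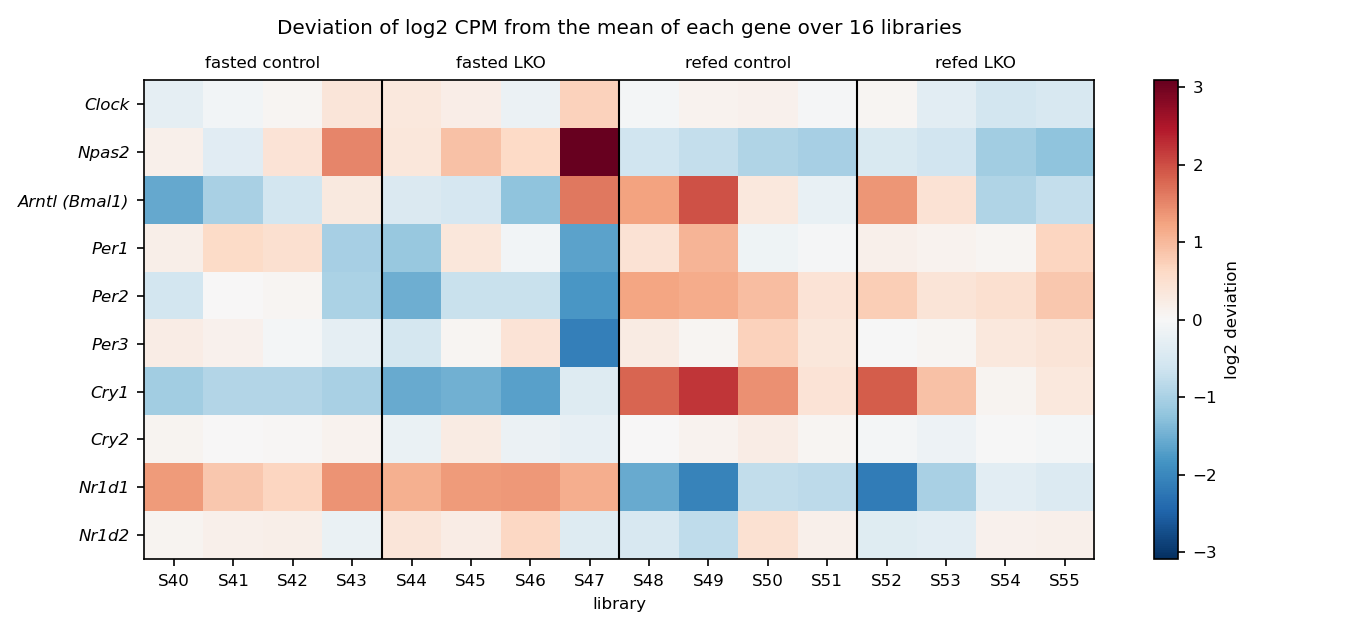
Deviation of log2 CPM of each core clock gene (rows) from its mean over the 16 libraries (columns, S40 to S55, 4 per group), in red above and blue below the mean. Cry1 and Per2 sit above their mean in refed libraries and Nr1d1 below it, and S43 and S47 are high for Clock, Npas2 and Arntl and low for Per1, Per2 and Per3.

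Levels can be ordered between genes only per kilobase of gene length. Over the 16 libraries the median was highest for Nr1d1, at 27.6 CPM per kb (range 5.17 to 60.9). Per1 followed with a median of 8.39 (2.42 to 15.8), Nr1d2 with 7.88 (4.10 to 11.2), Cry2 with 7.13 (5.87 to 8.44) and Per2 with 5.75 CPM per kb (1.38 to 11.3). The lower levels belonged to Cry1, with a median of 2.06 (0.688 to 10.6), Per3 with 2.04 (0.433 to 3.13), Clock with 1.19 (0.792 to 1.93) and Arntl with 0.317 CPM per kb (0.125 to 1.62). Npas2 was lowest, with a median of 0.0343 CPM per kb. The ranges of every pair of neighbours in this order overlapped. Spread over libraries differed between members: the highest library was 1.44-fold above the lowest for Cry2, 2.43-fold for Clock, 12.9-fold for Arntl and 15.4-fold for Cry1.

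**Figure D2:**
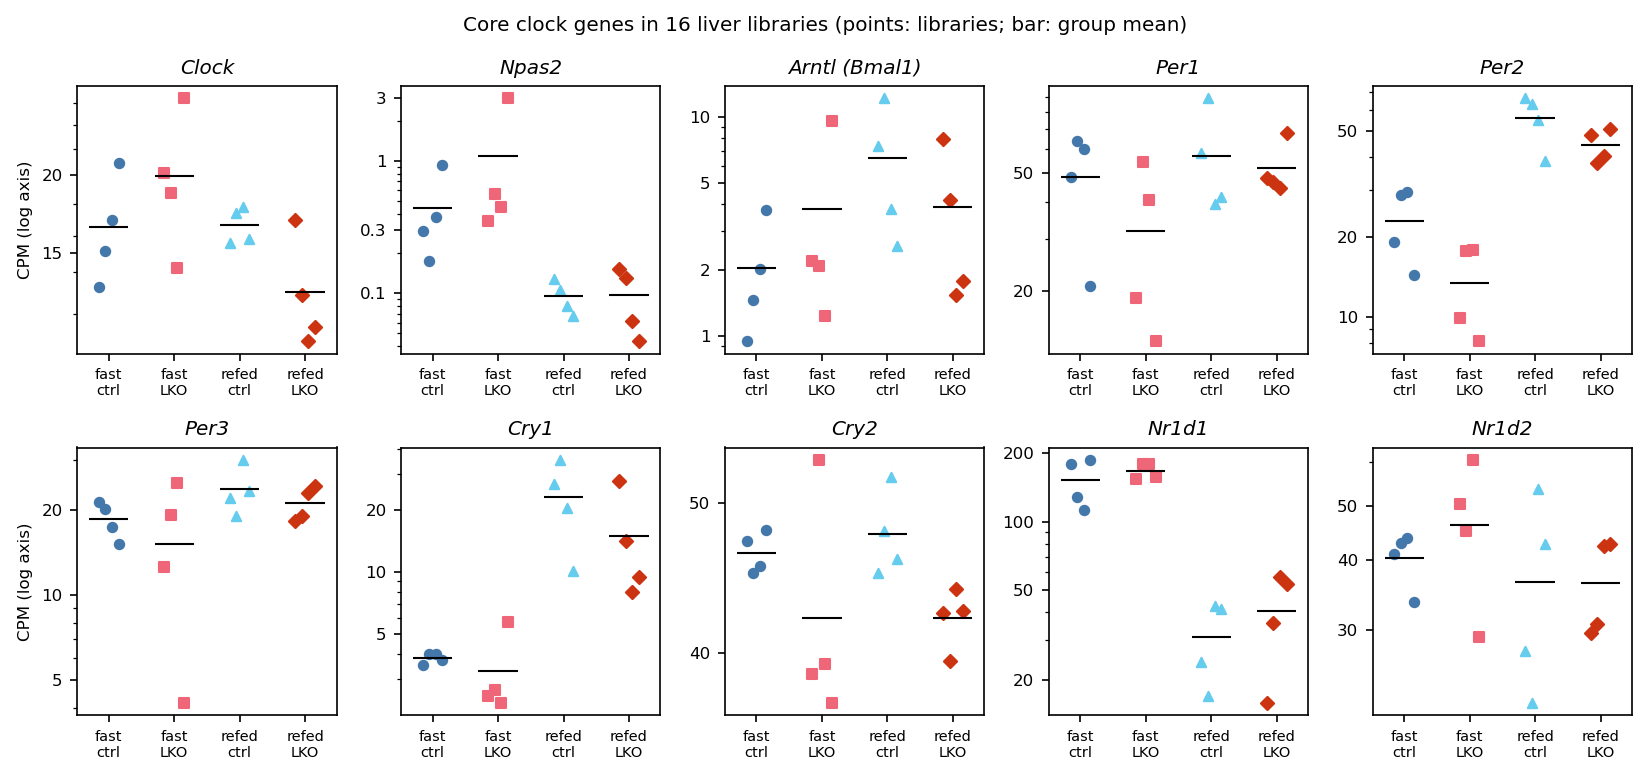
CPM (log axis) of the 10 core clock genes in each library, by group, with a bar at the group mean. Refed libraries lie above fasted libraries for Per2 and Cry1 and below them for Npas2 and Nr1d1, in control and LKO alike, while Arntl, Per1, Per3, Cry2 and Nr1d2 overlap between the states.

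Refeeding was compared with fasting within each genotype. Among control livers Per2 and Cry1 rose and Nr1d1 fell, and among LKO livers Per2 and Cry1 rose while Nr1d1 and Clock fell. Of the 9 members that passed the filter on low counts (Npas2 did not), 3 were called in control, where 15.4% of all 14488 genes tested were called. In LKO 4 of 9 were called, beside 18.1% of all genes. The fasted and refed libraries did not overlap for 3 of the 9 members tested (Per2, Cry1 and Nr1d1) in each genotype, beside 20.4% of all genes tested in control and 20.6% in LKO. Those of Npas2, which is not among the genes tested, did not overlap either. In control 1 of 4 stellate cell markers was called: Lrat rose by 0.95 on the log2 scale (edgeR Benjamini-Hochberg adjusted p = 0.00551). The other stellate markers gave 0.21 (Dcn), -0.79 (Col1a1) and -0.40 (Pdgfrb). In LKO 1 of 3 cholangiocyte markers was called: Krt19 fell by 2.53 (edgeR Benjamini-Hochberg adjusted p = 0.0496). The other cholangiocyte markers gave -0.96 (Krt7) and -1.24 (Epcam). The 3 markers summed to 41.5 CPM in the fasted LKO library S44 and to at most 4.43 CPM in the other fasted LKO libraries. In refed LKO they summed to 2.81 to 5.01 CPM, so the fall of this sum rests on S44. No other cell type marker was called in either comparison, and the part of these markers in the clock results was not tested. The median size of the log2 fold change over the members was 0.35 in control and 0.61 in LKO, beside 0.24 and 0.23 over all genes tested. Per2, Cry1 and Nr1d1 were called in 23 of 23 alternative settings in each genotype.

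Npas2, the paralog that can stand in for Clock, was read from few counts. Its levels in fasted control were 0.298, 0.175, 0.379 and 0.927 CPM, against 0.128, 0.106, 0.0796 and 0.0679 CPM in refed control. In LKO they were 0.349, 0.566, 0.448 and 2.98 CPM fasted and 0.154, 0.131, 0.0618 and 0.0433 CPM refed. Every refed library lay below every fasted library of its genotype, at 1 to 3 counts per refed library. Summed counts went from 30 to 7 in control, a level 4.47-fold lower (95% counting interval 1.92 to 12.1), and from 73 to 7 in LKO, 10.6-fold lower (4.91 to 27.4). These intervals cover counting error only, and 15 of the 30 fasted control counts were in S43 and 48 of the 73 fasted LKO counts in S47. Without S43 the refed control level was 2.90-fold lower (1.11 to 8.40), and without S47 the refed LKO level was 4.68-fold lower (1.97 to 12.8). An exact two-sided permutation test of CPM gave p = 0.0286 in each genotype, the smallest that 4 against 4 libraries allow. In the edgeR fit without the filter, the Benjamini-Hochberg adjusted p was 0.131 in control and 0.0054 in LKO.

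Clock encodes the DNA-binding partner of BMAL1. Its levels were 13.3, 15.1, 16.9 and 20.9 CPM in fasted control and 15.6, 17.4, 17.8 and 15.8 CPM in refed control. In LKO they were 20.1, 18.7, 14.2 and 26.5 CPM fasted and 16.9, 12.9, 10.9 and 11.5 CPM refed. The refed control libraries lay inside the fasted range, and in LKO 3 of the 4 refed libraries lay below the fasted ones. The log2 fold change was 0.01 in control (95% interval -0.36 to 0.39, and 0.14 without S43) and -0.61 in LKO (SE 0.18, edgeR Benjamini-Hochberg adjusted p = 0.0267). The LKO call was lost in 6 of 23 alternatives. Fitting only the groups compared gave an adjusted p of 0.0643, and leaving out S44, S47, S53, S54 or S55 gave 0.0544, 0.0929, 0.0575, 0.0739 and 0.0816 in turn.

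Arntl encodes BMAL1, the partner that CLOCK and NPAS2 share. Fasted control libraries held 0.943, 1.46, 2.02 and 3.77 CPM and refed control libraries 7.35, 12.2, 3.82 and 2.58 CPM. Fasted LKO libraries held 2.20, 2.09, 1.23 and 9.63 CPM and refed LKO libraries 7.98, 4.19, 1.54 and 1.78 CPM. The states overlapped in both genotypes, and the refed libraries of each genotype spread over more than the distance between the group means. In control the log2 fold change was 1.68 (SE 0.68, 95% interval 0.24 to 3.12), which missed the threshold by edgeR (Benjamini-Hochberg adjusted p = 0.107, with a range of 0.055 to 0.296 over the alternatives). The authors' deposited table gives 1.67 with an adjusted p of 0.0474 for the same comparison. In LKO it was 0.05 (95% interval -1.34 to 1.44), and 1.07 without S47 (adjusted p = 0.277).

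Per2, a repressor of the loop whose transcription is also known to respond directly to systemic cues, rose in both genotypes. Its levels were 19.1, 28.7, 29.6 and 14.4 CPM in fasted control and 66.4, 63.4, 55.05 and 38.4 CPM in refed control. In LKO they were 9.93, 17.65, 17.8 and 8.08 CPM fasted and 48.4, 37.7, 40.2 and 51.1 CPM refed. No fasted library reached a refed library in either genotype. The change was 2.43-fold in control (log2 1.28, SE 0.26, edgeR Benjamini-Hochberg adjusted p = 0.00437). It was 3.32-fold in LKO (log2 1.73, SE 0.27, edgeR Benjamini-Hochberg adjusted p = 4.19e-04). Without S43 the control value was 1.12, and without S47 the LKO value was 1.56, both still called.

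The other Per genes did not pass the test. Per1 held 48.4, 64.1, 59.8 and 20.8 CPM in fasted control and 58.3, 88.9, 39.1 and 41.5 CPM in refed control. In LKO it held 19.0, 54.4, 40.6 and 13.6 CPM fasted and 47.99, 46.5, 44.6 and 67.9 CPM refed. The lowest fasted libraries were S43 in control and S44 and S47 in LKO, and the states overlapped in both genotypes. The Per1 log2 fold change was 0.24 in control (95% interval -0.59 to 1.07) and 0.70 in LKO (-0.14 to 1.54). Without S43 the control value was -0.01, and without S47 the LKO value was 0.45. Per3, the member of the family that the loop is known to need least, averaged 18.5 ± 2.75 CPM fasted and 23.6 ± 4.68 CPM refed in control, and 15.2 ± 8.88 and 21.1 ± 2.92 CPM in LKO. Its log2 fold change was 0.35 (-0.33 to 1.04) in control and 0.48 (-0.21 to 1.17) in LKO, and 0.17 in LKO without S47. The deposited span of Per3 lies within that of Camta1 on the same strand, which held group means of 4.53 to 5.25 CPM.

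Cry1, a strong repressor of CLOCK and BMAL1, had the largest rise among the 9 members tested in both genotypes. Fasted control libraries held 3.53, 3.97, 3.98 and 3.71 CPM and refed control libraries 26.8, 35.4, 20.5 and 10.1 CPM. Fasted LKO libraries held 2.50, 2.66, 2.30 and 5.72 CPM and refed LKO libraries 28.0, 14.3, 8.03 and 9.49 CPM. The states did not overlap, and in CPM the refed libraries were spread far more widely than the fasted ones. As log2 deviations from the Cry1 mean, control libraries ran from -1.08 to -0.91 fasted and from 0.41 to 2.21 refed. LKO libraries ran from -1.67 to -0.40 fasted and from 0.08 to 1.87 refed, a less unequal spread. Cry1 was 6.12-fold higher in control (log2 2.61, SE 0.42, edgeR Benjamini-Hochberg adjusted p = 0.00118). It was 4.58-fold higher in LKO (log2 2.20, SE 0.42, edgeR Benjamini-Hochberg adjusted p = 0.00203), and without S47 the LKO value was 2.59.

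Cry2, the paralog of Cry1, kept a narrow range. Its group means were 46.4 ± 1.39 CPM fasted and 47.8 ± 3.09 CPM refed in control, and 42.1 ± 7.54 and 42.1 ± 1.88 CPM in LKO. The 95% interval of its refeeding log2 fold change was -0.16 to 0.25 in control and -0.21 to 0.21 in LKO. Without S47 the LKO value was -0.06. A rise of the size measured for Cry1 lies outside both intervals.

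Nr1d1, which encodes REV-ERBα, had the largest fall among the members tested. Fasted control libraries held 179, 129, 113 and 187 CPM and refed control libraries 24.1, 17.0, 42.3 and 41.1 CPM. Fasted LKO libraries held 154, 179.8, 179.9 and 157 CPM and refed LKO libraries 15.9, 35.9, 57.2 and 53.3 CPM. The lowest fasted library was well above the highest refed library in both genotypes. Nr1d1 was 4.88-fold lower after refeeding in control (log2 -2.29, SE 0.34, edgeR Benjamini-Hochberg adjusted p = 7.2e-04). It was 4.13-fold lower in LKO (log2 -2.05, SE 0.33, edgeR Benjamini-Hochberg adjusted p = 6.27e-04). The deposited span of Nr1d1 overlaps that of Thra, the thyroid hormone receptor alpha gene on the opposite strand, by 1075 bases, and whether the counting used strand is not given in the sources used here. Thra held 30.3 ± 6.74 CPM in fasted control and 13.6 ± 1.37 CPM in refed control, with 28.5 ± 2.64 and 14.4 ± 2.67 CPM in LKO. Its log2 fold change by edgeR was -1.16 in control (Benjamini-Hochberg adjusted p = 3.9e-04) and -0.99 in LKO (adjusted p = 4.64e-04), and reads in the shared bases cannot be assigned to either gene here.

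Nr1d2, which encodes the close relative REV-ERBβ, did not pass the test. It held 40.96, 42.96, 43.9 and 33.6 CPM in fasted control and 27.5, 22.2, 53.6 and 42.8 CPM in refed control. In LKO it held 50.5, 45.1, 60.6 and 29.1 CPM fasted and 29.6, 30.8, 42.5 and 42.8 CPM refed. The states overlapped in both genotypes. The log2 fold change was -0.14 (95% interval -0.66 to 0.38) in control and -0.35 (-0.87 to 0.17) in LKO, intervals that do not reach the fall measured for Nr1d1. Without S43 the control value was -0.22.

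**Figure D3:**
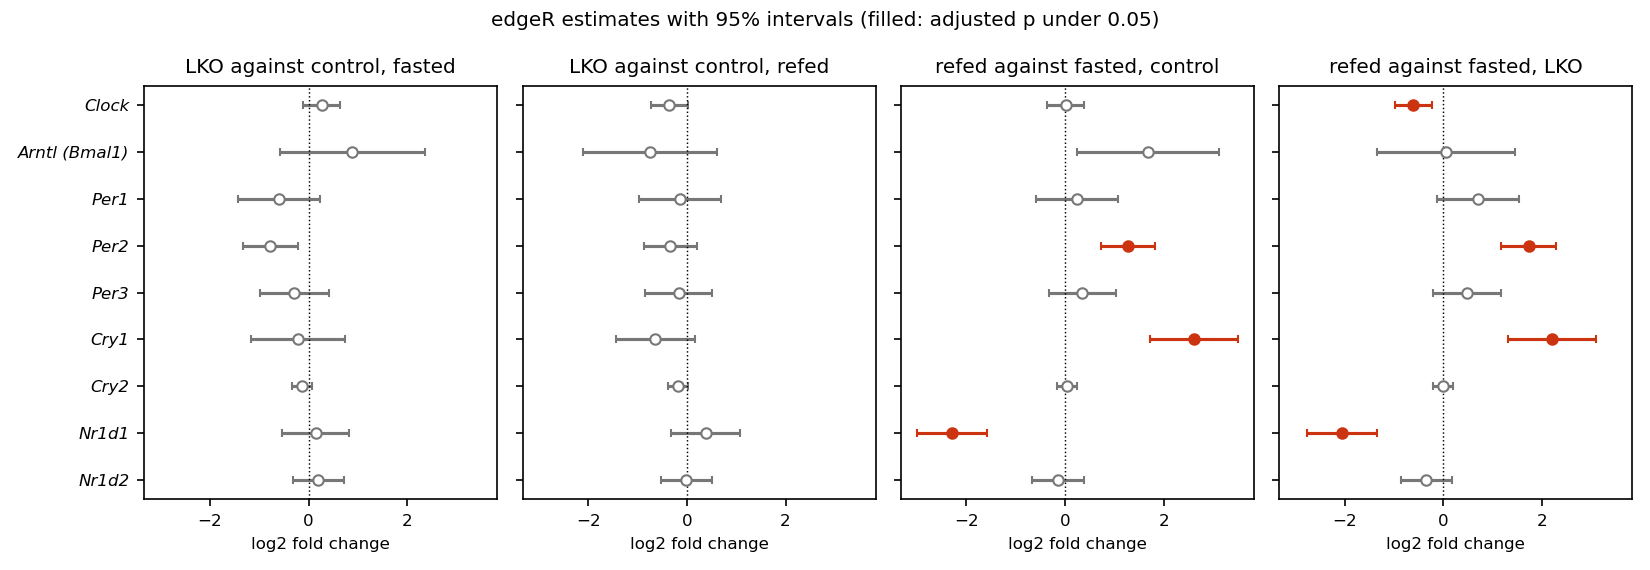
Log2 fold changes by edgeR with 95% intervals for the 9 core clock genes tested, in 4 comparisons, filled red where the adjusted p is under 0.05. Per2, Cry1 and Nr1d1 are filled in both refeeding comparisons and Clock in that of LKO, and no gene is filled in either comparison of LKO with control.

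The effect of the knockout was compared within each feeding state. By edgeR with Benjamini-Hochberg adjustment, 0 of the 9 members tested were called in fasted livers, beside 12.2% of all genes, and 0 of 9 in refed livers, beside 3.63% of all genes. At an unadjusted p under 0.05 the counts were 1 (Per2) fasted and 0 refed, and DESeq2 called 1 (Per2) fasted and 0 refed. Control and LKO libraries separated without overlap for 0 of the 9 members tested in fasted livers, beside 16.9% of all genes tested, and for 1 of 9 (Cry2) in refed livers, beside 11.7%. Those of Npas2 overlapped in both states. The median size of the log2 fold change over the members was 0.27 fasted and 0.33 refed, beside 0.21 and 0.17 over all genes. The comparisons of genotype and of feeding share libraries, so their values are set side by side and not combined.

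A few cell type markers were called between genotypes in fasted livers, beside 12.2% of all genes. These were 1 of 6 hepatocyte and 1 of 4 stellate cell markers tested. The other calls were 1 of 1 adipocyte and 1 of 3 red blood cell markers tested. Of the 5 macrophage, 4 endothelial, 3 cholangiocyte and 3 lymphocyte markers tested, 0 were called. The 6 hepatocyte markers summed to 66898 to 74970 CPM in fasted control and to 56684 to 65252 CPM in fasted LKO, which did not overlap, against 65374 to 84445 and 57783 to 70909 CPM refed, which did. Of the hepatocyte markers Ttr was lower in fasted LKO (edgeR log2 -0.59, Benjamini-Hochberg adjusted p = 0.0181). The other hepatocyte markers were not called: Apoa1 gave 0.37, and Alb, Serpina1a, Cyp3a11 and Cps1 gave -0.29, -0.18, -0.71 and -0.67. The 3 adipocyte markers summed to 9.81 to 58.1 CPM in fasted control and to 0.448 to 9.63 CPM in fasted LKO, again without overlap, and of these Cfd was lower in LKO (log2 -3.45, edgeR Benjamini-Hochberg adjusted p = 0.0182). Alas2, a red blood cell marker, was lower (log2 -1.04, edgeR Benjamini-Hochberg adjusted p = 4.99e-04) and Dcn, a stellate cell marker, higher (log2 0.36, adjusted p = 0.0413). The other stellate markers were not called, with Lrat at 0.39, Col1a1 at -0.60 and Pdgfrb at -0.09. The 4 stellate markers summed to 114 to 192 CPM in fasted control and to 132 to 188 CPM in fasted LKO, which overlapped. No marker passed the test between genotypes in refed livers, beside 3.63% of all genes. The part of these markers in the genotype values of the clock genes was not tested.

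Per2 averaged 22.9 ± 7.42 CPM in fasted control and 13.4 ± 5.10 CPM in fasted LKO. The libraries overlapped: the control library S43 lay below the higher LKO libraries, S45 and S46. The log2 fold change was -0.78 (SE 0.27, 95% interval -1.34 to -0.22, edgeR Benjamini-Hochberg adjusted p = 0.0663). DESeq2 gave an adjusted p of 0.0265, leaving out S43 gave 0.0344 and leaving out S45 gave 0.0372, leaving out S47 gave a log2 of -0.60 (adjusted p = 0.151), and over all alternatives the adjusted p ran up to 0.184. In refed livers the value was -0.33 (95% interval -0.87 to 0.20).

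Cry2 was the member whose groups separated between genotypes in refed livers, where the control libraries held 45.04, 47.96, 52.02 and 46.02 CPM and the LKO libraries 42.4, 39.5, 44 and 42.5 CPM. Every refed LKO library lay below every refed control library. The difference was small, with a log2 fold change of -0.18 (95% interval -0.39 to 0.02, edgeR Benjamini-Hochberg adjusted p = 0.338). In fasted livers it was -0.14 (-0.35 to 0.07, and -0.09 without S47), with 47.2, 45.1, 45.5 and 47.996 CPM in control against 38.7, 53.3, 39.3 and 37.1 CPM in LKO. Library S45 was the only fasted LKO library above the control range, and without it the value was -0.28 and passed the test (adjusted p = 0.0169).

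The remaining members gave wide intervals between genotypes. The Arntl log2 fold change was 0.89 in fasted livers (95% interval -0.59 to 2.36) and -0.74 in refed livers (-2.10 to 0.62), and the fasted value turned to -0.13 without S47 and was 1.36 without S43. Cry1 gave -0.22 fasted (-1.16 to 0.73, and -0.61 without S47) and -0.64 refed (-1.43 to 0.16). Clock gave 0.27 fasted (-0.11 to 0.64, and 0.10 without S47) and -0.35 refed (-0.73 to 0.03). For the period genes, Per1 gave -0.60 fasted (-1.44 to 0.24) and -0.14 refed (-0.96 to 0.69), and Per3 gave -0.29 fasted (-0.98 to 0.41) and -0.16 refed (-0.84 to 0.52). Without S47 the fasted Per1 value was -0.35 and the fasted Per3 value 0.02. Nr1d1 gave 0.14 fasted (-0.54 to 0.82) and 0.38 refed (-0.31 to 1.07), and Nr1d2 gave 0.20 fasted (-0.32 to 0.72) and -0.01 refed (-0.53 to 0.51). Without S43 the fasted values were 0.26 for Nr1d1 and 0.12 for Nr1d2, and without S47 that of Nr1d2 was 0.37. For Npas2, exact two-sided permutation tests gave p = 0.486 fasted and 0.914 refed.

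Whether refeeding acted differently in the genotypes was tested as an interaction, where 0 of 9 members were called by edgeR with Benjamini-Hochberg adjustment, beside 0.538% of all genes. At an unadjusted p under 0.05 the count was 1 (Clock), and DESeq2 called 0. The Clock difference was -0.62 on the log2 scale (95% interval -1.15 to -0.08, adjusted p = 0.224), and -0.45 without S47. Arntl gave -1.63 (-3.64 to 0.38), and -0.61 without S47. Per2 gave 0.45 (-0.33 to 1.22), Cry1 -0.42 (-1.66 to 0.82) and Nr1d1 0.24 (-0.73 to 1.21). Without S47 the Per2 value was 0.27 and the Cry1 value -0.03, and without S43 the Nr1d1 value was 0.13. The Clock fall that was called in LKO and not in control is thus not shown to differ between the genotypes after adjustment.

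Opposite arms of the loop can be read within a library as the ratio of Arntl counts to Nr1d1 counts, which library scaling does not touch. Its log2 value was -7.57, -6.46, -5.80 and -5.64 in fasted control, and -6.14, -6.42, -7.19 and -4.02 in fasted LKO. It was -1.71, -0.48, -3.47 and -3.99 in refed control, and -0.995, -3.10, -5.21 and -4.91 in refed LKO. In control the states did not overlap, with means of -6.37 ± 0.88 and -2.41 ± 1.62 (SD, n = 4). In LKO they overlapped through S47, with means of -5.94 ± 1.36 and -3.55 ± 1.94. Taken alone, Arntl had refeeding log2 fold changes of 1.68 in control and 0.05 in LKO, and Nr1d1 of -2.29 and -2.05. The LKO shift in the ratio is thus mostly that of Nr1d1. The overlap of Nr1d1 with Thra limits this ratio too.

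Members also varied together among libraries of the same feeding state. The 45 pairs of members were compared on log2 CPM over the 8 libraries of each state, 90 relations in all, with exact permutation p-values adjusted by Benjamini-Hochberg. Of these, 6 passed by Pearson's r, 5 by Spearman's rho and 4 by both. Each state holds 4 libraries per genotype, too few for a value within a genotype, so r was also taken after centring each group on its mean.

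In refed livers the libraries lined up along Arntl, Cry1 and Nr1d1. Arntl and Cry1 gave r = 0.97 (exact permutation p = 2.73e-04, adjusted p = 0.00818) and rho = 0.98 (p = 3.97e-04, adjusted p = 0.0179). Their r was 0.94 without the 2 libraries farthest from the median of Arntl (S49 and S54), and 0.97 after centring. Arntl and Nr1d1 gave r = -0.95 (exact permutation p = 4.71e-04, adjusted p = 0.0106) and rho = -0.95 (p = 0.00114, adjusted p = 0.0342), with -0.92 without the same libraries and -0.96 after centring. S49 and S52 stood at one end, with high Arntl and Cry1 and low Nr1d1, and S54 and S55 at the other. Cry1 and Nr1d1 passed by r (-0.91, exact permutation p = 0.0033, adjusted p = 0.0495, and -0.83 without S54 and S49) and not by rho (-0.90, p = 0.00456, adjusted p = 0.0587).

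In fasted livers another set of members moved together. Clock and Arntl gave r = 0.96 (exact permutation p = 2.48e-05, adjusted p = 0.00223) and rho = 1 (p = 4.96e-05, adjusted p = 0.00446). Their r was 0.91 without S47 and S40 and 0.96 after centring. Clock and Per3 gave r = -0.87 (exact permutation p = 9.67e-04, adjusted p = 0.0174) and rho = -0.93 (p = 0.00223, adjusted p = 0.0402), with r = -0.86 without S47 and S40. Per1 and Per2 gave r = 0.93 (exact permutation p = 1.98e-04, adjusted p = 0.00818) and rho = 0.90 (p = 0.00456, adjusted p = 0.0587), with r = 0.80 without S47 and S44. Arntl and Nr1d1, tightly opposed among refed livers, gave r = 0.01 and rho = 0.07 among fasted livers (exact permutation p = 0.988 and 0.882, adjusted p = 0.988 and 0.945). The difference between the states in r was not tested.

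**Figure D4:**
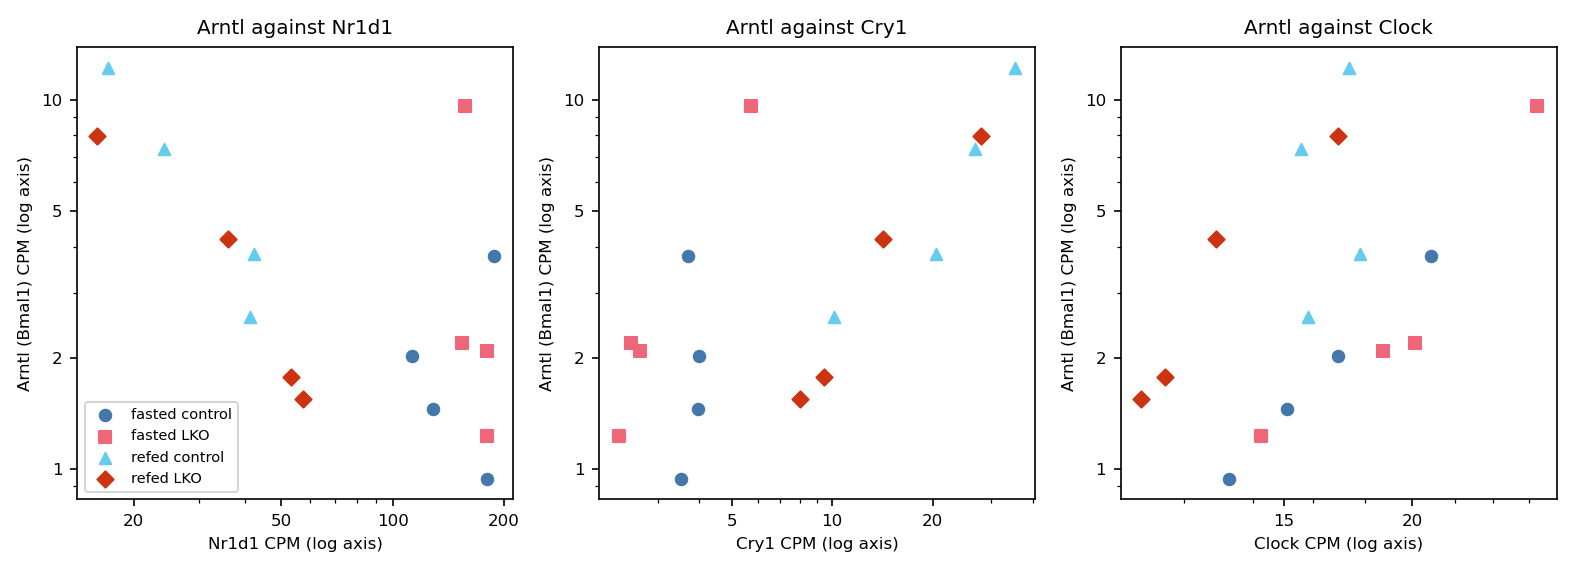
Arntl (Bmal1) CPM against Nr1d1, Cry1 and Clock CPM in each of the 16 libraries (both axes log), by group. Refed libraries fall on a line for Nr1d1 (r = -0.95) and Cry1 (r = 0.97), and fasted libraries on a line for Clock (r = 0.96).

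The genes whose profile over the 16 libraries was most like that of Arntl were found among 8876 genes by the root mean square difference of log2 deviations from their own mean. They were Slc45a3 (0.585), Abtb2 (0.592), Slc30a10 (0.620), Nfil3 (0.655) and Lgalsl (0.679), where the median gene gave 1.07 and a flat profile 1.05. Nfil3 encodes E4BP4, the repressor that competes for D-boxes. Slc45a3 held 26.4 and 24.3 CPM on average in fasted control and LKO, and 51.98 and 29.2 CPM refed. For Nr1d1 the nearest were Trib3 (0.374), Fbxo21 (0.503), Junb (0.538), Pcbp4 (0.606) and Il1rn (0.620), where the median gene gave 1.27 and a flat profile 1.24. Trib3, a pseudokinase, held 19.9 and 32.3 CPM on average in fasted control and LKO and 4.06 and 6.03 CPM refed. Junb, a subunit of AP-1, held 79.98 and 72.6 CPM fasted and 22.7 and 24.9 CPM refed.

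Among 12 other genes of the clock's feedback loops that were tested, 5 passed in refed against fasted control and 6 in LKO, beside 15.4% and 18.1% of all genes. Their median log2 fold change was 0.34 in control and 0.25 in LKO, beside 0.01 and -0.02 over all genes. Bhlhe40, which encodes the E-box repressor DEC1, rose by 0.73 on the log2 scale in control (edgeR Benjamini-Hochberg adjusted p = 0.00853) and by 1.34 in LKO (adjusted p = 8.49e-05). Its relative Bhlhe41 fell by 2.17 in control and gave a log2 of -1.84 in LKO, also called. The Bhlhe41 call was lost without S40 or with limma-voom in control (adjusted p up to 0.0566), and without S44 or S52 in LKO (up to 0.0573). Timeless rose by 0.93 and Tipin by 0.75 in LKO. These genes encode a pair of replication fork proteins, were listed here with the feedback loops, and are among the calls counted above. In control Tipin gave 0.56, just over the threshold by edgeR (Benjamini-Hochberg adjusted p = 0.0508), and DESeq2 called it. Timeless rose by 0.60 in control, a call lost in 7 of 23 alternatives (limma-voom, only the groups compared, and without S40, S41, S42, S48 or S49, with adjusted p up to 0.109). Hlf, a D-box activator gene, rose by 0.40 in LKO, a call lost in 15 of 23 alternatives and in 13 of the 16 that leave out a library (adjusted p up to 0.142).

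Dbp, a D-box activator and a direct target of CLOCK and BMAL1, fell by 1.76 on the log2 scale in control (edgeR Benjamini-Hochberg adjusted p = 0.0267) and gave -0.57 in LKO (adjusted p = 0.465). Leaving out 1 library moved the LKO value between -0.88 and -0.29. Its interaction was 1.19 (edgeR Benjamini-Hochberg adjusted p = 0.411), so the Dbp change is not shown to differ between the genotypes. The control call was lost without S40, S48 or S49 (adjusted p up to 0.0794). In LKO against control, 2 of the 12 were called in fasted livers, beside 12.2% of all genes: fasted LKO livers had lower Bhlhe40 (log2 -0.81, edgeR Benjamini-Hochberg adjusted p = 0.00533) and lower Ciart, which encodes the repressor CHRONO (log2 -2.45, adjusted p = 0.0175). The Ciart call was lost with only the groups compared and without S42 or S44 (adjusted p up to 0.0594). In refed livers edgeR called 0 of the 12, beside 3.63% of all genes, with 2 (Timeless and Tipin) at an unadjusted p under 0.05, and DESeq2 called 1 (Timeless). In the interaction edgeR and DESeq2 each called 0, beside 0.538% of all genes by edgeR, with 3 (Bhlhe40, Ciart and Rora) at an unadjusted p under 0.05.

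Kinases, ligases and cofactors of the clock proteins formed a further list. Of 21 tested, 4 passed in each refeeding comparison, beside 15.4% of all genes in control and 18.1% in LKO. Nampt, the enzyme of NAD salvage whose product feeds SIRT1, rose in both (edgeR log2 0.81 with Benjamini-Hochberg adjusted p = 0.00226 in control, and 1.03 with 2.34e-04 in LKO). Prkaa2, a catalytic subunit of AMPK, rose by 0.72 in control (adjusted p = 1.63e-04), with the acetyltransferase genes Crebbp and Ep300 at 0.47 each. Ncor1, the corepressor that REV-ERB proteins recruit, fell by 0.48 in LKO (adjusted p = 0.00512) and was higher in fasted LKO than in fasted control (log2 0.60, adjusted p = 0.00209). Fbxl21, a ligase gene for CRY proteins, rose by 0.67 in LKO, and Csnk1a1, a casein kinase gene, fell by 0.21 in LKO, the last lost in 11 of 23 alternatives (adjusted p up to 0.157) and in 9 of the 16 that leave out a library. The medians of the 21 were 0.13 in control and -0.02 in LKO, beside 0.01 and -0.02 over all genes.

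Genes that report feeding, hormonal and heat cues were read beside the clock. Of 17 tested, 4 passed in refed against fasted control and 6 in LKO, beside 15.4% and 18.1% of all genes. Their medians were 0.07 and 0.02, beside 0.01 and -0.02 over all genes. Hsp90aa1, a heat-shock chaperone gene, rose by 1.21 in control and 1.08 in LKO (edgeR Benjamini-Hochberg adjusted p = 0.00242 and 0.00281). The other heat genes listed were not called: Hspa1a, Hspa1b and Hsf1 gave log2 values of -1.28, -1.27 and -0.14 in control. In LKO they gave 0.02, -0.77 and 0.11. Srebf1, the insulin-responsive regulator of lipogenesis, rose by 1.05 in control (0.0159; 0.0615 without S48) and by 2.61 in LKO (adjusted p = 3.32e-05). Irs2 and Igfbp1, which insulin represses, fell in LKO, with log2 values of -1.98 and -2.53 (adjusted p = 0.00142 and 0.00272). Sik1, a kinase gene induced by cAMP, rose by 1.17 in control (adjusted p = 0.00649) and gave 0.09 in LKO (0.841). Its interaction was -1.08 (edgeR Benjamini-Hochberg adjusted p = 0.143), so the Sik1 change is not shown to differ between the genotypes. The part of these cues in the clock genes' changes was not tested.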

How the data were processed

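Poly-A RNA was selected from liver and sequenced from dUTP libraries, per the labels' protocols. Reads were aligned with HISAT2 2.0.5 to mm39, per the submitters' processing notes, and the counting tool is not given in the sources used here. The authors deposited 4 tables of raw counts per gene, each comparing a pair of groups over 8 libraries. The deposited tables also give the authors' log2 fold changes, p-values and adjusted p-values, and gene lengths in bases, per the file headers. A further 64 per-library columns were not used. Columns S40 to S55 were placed in groups by the heading that the tables holding them share, and carry no replicate number. The tables were joined into 25803 genes, 0 counts differed between tables, and a gene absent from a library's tables was set to 0 there (3148 genes). Every listed gene has at least 2 counts over a table.

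In R 4.3.3, 14488 genes passing filterByExpr were scaled with TMM factors (0.941 to 1.07) and fitted with edgeR 4.0.16 (glmQLFit, 4 groups as one factor, biological coefficient of variation 0.185). Contrasts were tested with glmQLFTest, and genes were called where the p adjusted by Benjamini-Hochberg over all genes tested was under 0.05. Log2 CPM for correlations and profiles used a prior count of 2. Npas2, below the filter, was compared by exact two-sided permutation tests and by its summed counts. Alternatives were upper-quartile and RLE scaling, DESeq2 1.42.0, limma 3.58.1 (voom), no filter, a minimum mean of 5 CPM, only the groups compared, and leaving out each library. Members and lists were chosen with earlier results of these data known. Named genes are the members, Cpt1a, members of the lists, the 5 genes most like Arntl and Nr1d1, and Thra, which overlaps Nr1d1 and was added after its values were seen. Some list members are counted but not reported by name here. Of the feedback-loop list, 12 of 13 genes were in the tables. Marker lists covered hepatocytes, macrophages, endothelial and stellate cells, cholangiocytes, lymphocytes, adipocytes and red blood cells. RefSeq sequences are on GRCm38.p6, a build apart from that of the tables, and no coordinate was carried between them.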

Additional observations from a re-analysis of the deposited data

Results flagged for a closer look

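Each member was checked in each group of 4 libraries for a library far from the others on the log2 scale, 40 groups in all, and 2 stood out, where chance flags about 1 in 20 groups. Library S47 had the highest Cry1 of the fasted LKO group, at 5.72 CPM, far above its other libraries at 2.30 to 2.66 CPM. Library S45 had the highest Cry2 of the fasted LKO group, at 53.3 CPM, where its other libraries held 37.1 to 39.3 CPM.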

How the results depend on the processing

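No paired analysis was possible because the count columns carry no replicate number. Per2, Cry1 and Nr1d1 kept their refeeding calls under all 23 alternatives in both genotypes. The number of members called in fasted LKO against control was 0, 1 with DESeq2, and between 0 and 2 when 1 library was left out. No other number of called members moved by over 1.5 times. Sign changes were limited to members with estimates near 0 or resting on few libraries. Leaving out 1 library gave ranges of -0.13 to 1.36 for Arntl, and -0.627 to 0.0195 for Per3, in fasted LKO against control. In refed LKO against control they were -0.30 to 0.16 for Per1 and -0.19 to 0.24 for Nr1d2. In refed against fasted control they were -0.0826 to 0.144 for Clock, -0.0619 to 0.405 for Per1, -0.0027 to 0.0688 for Cry2 and -0.39 to 0.0382 for Nr1d2. In refed against fasted LKO they were -0.60 to 1.07 for Arntl and -0.0556 to 0.141 for Cry2. That Cry2 value also turned to 0.0033 with RLE scaling, 0.0035 with DESeq2, 0.0144 with limma-voom, 0.0125 with no filter and 0.0072 with only the groups compared. The refed genotype value of Nr1d2 turned to 0.0028 with upper-quartile scaling and 0.0541 with limma-voom. The cause of these turns was not tested. Depth limits Npas2 (1 to 48 counts per library) and Arntl (19 to 230) most.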

Other observations

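In fasted livers, genes of the list of systemic cues differed between genotypes. By edgeR with Benjamini-Hochberg adjustment, Srebf1 (log2 -2.25, adjusted p = 2.38e-04) was lower in fasted LKO than in fasted control. Irs2 (log2 1.51, adjusted p = 0.0114) and Sik1 (log2 1.04, adjusted p = 0.0137) were higher. Of 17 genes tested on that list, 5 were called fasted and 1 refed, beside 12.2% and 3.63% of all genes. Among those called fasted, Igfbp1 lost its call in 8 of 23 alternatives (adjusted p up to 0.135), 6 of them without S40, S41, S42, S43, S44 or S46. The gene called refed was Crem, at a log2 of -0.70 (edgeR Benjamini-Hochberg adjusted p = 0.0165, lost without S48 or S55 and with only the groups compared, with adjusted p up to 0.0604). The refed comparison also called Crebbp (log2 -0.34, adjusted p = 0.0283), lost in 8 of 23 alternatives (adjusted p up to 0.0823), 7 of them without S48, S49, S50, S52, S53, S54 or S55.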
